A study of Homo sapiens with 2 samples.

Results

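Integrins are cell surface receptors made of 1 alpha and 1 beta subunit. The genes described here encode the alpha subunits ITGA1, ITGA2, ITGA3, ITGA5, ITGA6 and ITGAV and the beta subunits ITGB1, ITGB4, ITGB5 and ITGB8, which are candidate surface partners of Mac-2 binding protein (M2BP). They were chosen by gene symbol, and 9 of the 10 symbols matched 1 of the 16424 genes in the deposited values. ITGB8 was not analysed here. The question was how their transcripts differed between PLC/PRF/5 cells with and without M2BPGi, a glycosylated form of M2BP. PLC/PRF/5 is an established human hepatoma cell line. The non-treated cells (0 µg/ml) gave 1 library and the cells given 3 µg/ml M2BPGi gave another, both collected after 6 h. With 1 library per condition, no difference has a replicate check, and the conditions were not tested.

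Integrins bind the extracellular matrix outside the cell and, through talin and kindlin, the actin cytoskeleton inside it. The alpha subunit largely sets the ligand: collagen for ITGA1 and ITGA2, laminin for ITGA3 and ITGA6, fibronectin for ITGA5, and proteins with an Arg-Gly-Asp (RGD) motif for ITGAV. In the liver, ITGAV integrins are known for releasing active TGF-beta from its latent complex, and ITGB1 is the beta subunit shared by most matrix receptors.

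Cap analysis of gene expression (CAGE) reads short tags at the capped 5′ end of RNAs. As 1 tag marks 1 transcript start, the level of a gene does not scale with its length. The values are CPM, tags scaled to the size of each library. The totals read back from the CPM were 24040209 tags (non-treated) and 24862941 tags (M2BPGi-treated). Where a gene had 0 tags, a level of up to 0.125 CPM (non-treated) or 0.121 CPM (M2BPGi-treated) remains possible. The log2 ratio (M2BPGi-treated over non-treated) was taken after adding 1 CPM, and so is too small for genes of low level. Each interval is a 95% Clopper-Pearson interval of the ratio of tags and covers counting error only. All 9 integrin genes passed the filter of a mean of at least 1 CPM, as did 13724 genes in all.

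Promoter sequences from RefSeq (GRCh38.p14) matched 7 of these 9 genes. Those of 4 genes are shown from 100 bases before to 10 bases after the annotated start nearest to that of a principal transcript, 5′ to 3′ on the strand of the gene. Of the bases shown, at most 30 a gene lie in annotated exons. The genes shown are the most abundant beta subunit (ITGB1), the gene with the lowest log2 ratio (ITGB5), its alpha partner (ITGAV), and the start that ITGA1 shares with another gene, PELO. Capitals mark the GC box, GGGCGG or CCGCCC on the other strand. The stretches lie at chr10:32958221-32958330 (minus strand) for ITGB1, chr3:124887356-124887465 (minus strand) for ITGB5, chr2:186589956-186590065 (plus strand) for ITGAV and chr5:52787816-52787925 (plus strand) for ITGA1 and PELO. The tags were mapped to another build, and the deposited values do not tell which start the tags came from.
ITGB1: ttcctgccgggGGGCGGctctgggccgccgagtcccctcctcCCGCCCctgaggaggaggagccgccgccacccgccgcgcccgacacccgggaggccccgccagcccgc
ITGB5: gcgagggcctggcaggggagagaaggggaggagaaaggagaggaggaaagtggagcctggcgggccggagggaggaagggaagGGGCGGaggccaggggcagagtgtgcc
ITGAV: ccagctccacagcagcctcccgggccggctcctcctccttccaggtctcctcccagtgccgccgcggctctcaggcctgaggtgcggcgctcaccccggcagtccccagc
ITGA1 and PELO: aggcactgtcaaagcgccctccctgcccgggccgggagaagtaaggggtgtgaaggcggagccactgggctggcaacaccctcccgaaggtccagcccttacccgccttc
A GC box was found in 4 of the 7 integrin promoters over this length, against 32.1% of 35116 annotated promoters. Of the 3 stretches not shown, those of ITGA2 and ITGA6 have 36 and 41 bases in annotated exons, and that of ITGA5 lies in them over all its 110 bases. The TATA box (TATAAA or TTTATA) was found in 0 of the 7, against 5.24% of all promoters, and CCAAT or ATTGG in 0 of the 7, against 18.9%. The G and C content of the 7 stretches was between 67.3% and 82.7%, with a median of 60% over all promoters. So the integrin promoters shown are rich in G and C, and the letters of a TATA box are not in these windows.

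All 9 integrin genes had a lower level in M2BPGi-treated than in non-treated cells, while 57.0% of the 13724 genes had a log2 ratio below 0. Their log2 ratios lay between -0.55 and -0.19, with a median of -0.29, and the median of all genes was -0.05. The differences were small: 0 of the 9 were at least 1.5-fold lower, against 4.04% of all genes, and 0 were at least 1.5-fold higher, against 1.60%. A log2 ratio of -0.32 or lower was reached by 3 of the 9 (ITGB5, ITGA6 and ITGAV), against 18.4% of all genes. The summed level of the 9 genes was 2155 CPM without and 1725 CPM with M2BPGi. CPM is a share of each library, so less integrin RNA per cell and more RNA of other genes cannot be told apart, nor can fewer cells of a kind and less RNA per cell.

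An exact two-sided binomial test of the tags, with Benjamini-Hochberg adjustment over the 13724 genes, compares 1 library with the other, not the conditions. By this test, 8 of the 9 integrin genes were called lower, against 28.4% of all genes, and 0 of the 9 higher, against 20.8% of all genes. Abundant genes are called more readily, and 32.3% of the 9464 genes with a mean of at least 10 CPM were called lower. ITGA3, with the fewest tags of the 9, was not called by the exact binomial test (adjusted p = 0.077). With both libraries set to a median log2 ratio of 0, an alternative added after seeing the data, the exact binomial test called 6 of the 9 lower, against 23.5% of all genes, without ITGA1 (adjusted p = 0.15) and ITGA2 (adjusted p = 0.083).

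**Figure D1:**
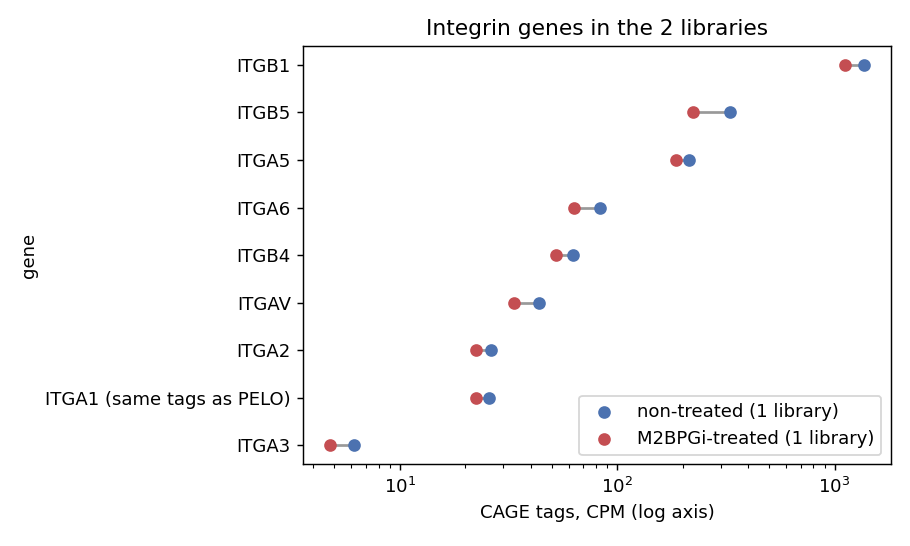
Level of each integrin gene (rows) in CPM on a log axis, with 1 point for the non-treated library and 1 for the M2BPGi-treated library. The M2BPGi-treated point lies to the left for all 9 genes, and ITGB1, at 1363 and 1114 CPM, lies above all others.

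Among the beta subunits, ITGB1 was the most abundant integrin gene. It had 1363 CPM without and 1114 CPM with M2BPGi, a log2 ratio of -0.29 (interval -0.31 to -0.27). It made up 63.3% of the summed level of the 9 genes in non-treated and 64.6% in M2BPGi-treated cells, so its share of these 9 differed little. A pseudogene listed as ITGB1P1 had 2.29 and 1.73 CPM. Its annotated transcript is identical to the start of an ITGB1 transcript over 177 nt, so tags could be assigned to either. ITGB1-DT, which overlaps ITGB1 on the opposite strand, had 10.7 and 8.61 CPM, lower in M2BPGi-treated cells like ITGB1.

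ITGB5, which pairs with ITGAV to bind vitronectin, had the lowest log2 ratio of the 9 genes. Its level was 329 CPM without and 224 CPM with M2BPGi, a log2 ratio of -0.55 (interval -0.60 to -0.51). Of the 13724 genes, 4.83% had a ratio as low or lower. The interval reaches past the 1.5-fold line at -0.58, while the value itself does not. ITGB4, the partner of ITGA6 in hemidesmosomes, had 63.0 and 52.6 CPM (interval -0.37 to -0.15). GALK1, which overlaps ITGB4 on the opposite strand, had 20.1 and 26.4 CPM and so was higher in M2BPGi-treated cells.

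Among the alpha subunits, ITGA5, the fibronectin receptor subunit, was the most abundant. It had 214 CPM without and 187 CPM with M2BPGi, a log2 ratio of -0.19 (interval -0.25 to -0.14). ITGA6, a laminin receptor subunit, had 83.7 and 63.7 CPM, a log2 ratio of -0.39 (interval -0.49 to -0.30). ITGAV had 43.7 and 33.5 CPM, a log2 ratio of -0.37 (interval -0.52 to -0.25). The intervals of ITGA6 and ITGAV overlap each other. That of ITGA6 lies below the interval of ITGA5, and that of ITGAV touches it. The collagen receptor subunit ITGA2 had 26.3 and 22.5 CPM (interval -0.39 to -0.06). ITGA3, a laminin receptor subunit, was the least abundant, with 6.20 and 4.79 CPM from 149 and 119 tags (interval -0.73 to -0.02). Its wide interval does not separate it from any other integrin gene.

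ITGA1, a collagen receptor subunit, had 25.8 CPM without and 22.5 CPM with M2BPGi (interval -0.37 to -0.03). PELO, which encodes a ribosome rescue factor, had the same 621 and 560 tags. PELO overlaps ITGA1 on the same strand, their transcripts are identical over 470 nt, and the same promoter stretch is annotated for both. The tags of ITGA1 and PELO therefore cannot be told apart, and the value of ITGA1 may belong to either gene. Among the 9464 genes with a mean of at least 10 CPM, 668 shared both tag numbers with another listed gene. Without ITGA1, the median log2 ratio of the other integrin genes was -0.30.

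**Figure D2:**
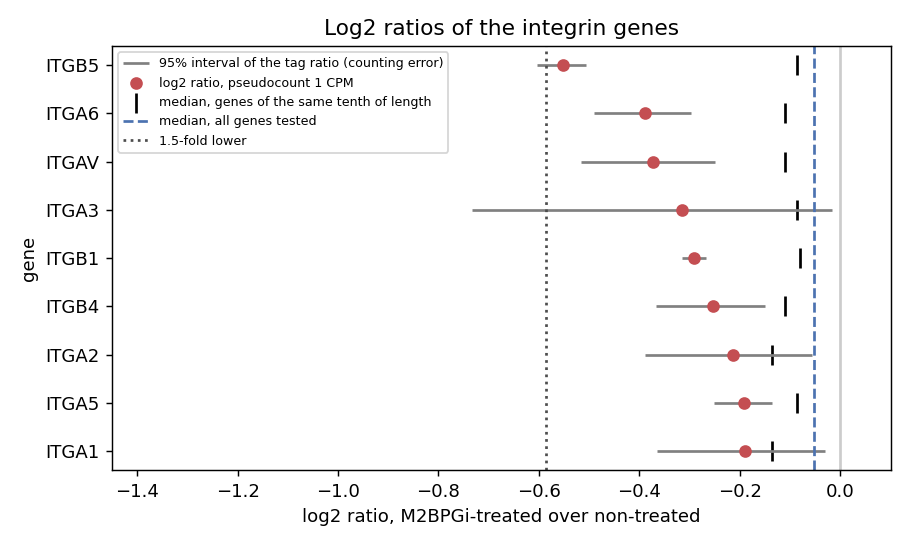
Log2 ratio (M2BPGi-treated over non-treated) for each integrin gene (points), with the 95% interval of the tag ratio (lines, counting error only), the median of genes of like transcript length (ticks), the median of all genes (dashed) and the 1.5-fold line (dotted). All 9 points lie below the median of all genes, and the value of ITGB5 is the lowest at -0.55.

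The balance between partner subunits was also compared. The 6 alpha subunits together had 0.29 times the level of ITGB1 in non-treated and 0.30 times in M2BPGi-treated cells. ITGB1 was thus in excess of the alpha subunits at the level of transcripts in both libraries. ITGB5 had 7.53 times the level of ITGAV in non-treated and 6.69 times in M2BPGi-treated cells. ITGA6 had 1.33 and 1.21 times the level of ITGB4. The order of the partners was thus the same in both libraries for each of these pairs.

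The log2 ratio also moved with transcript length. The longest annotated transcripts of the 9 integrin genes were between 3784 nt (ITGB1) and 10757 nt (ITGA1), above the median of 2965 nt of all genes tested with a known length. The genes were split by length into 10 groups of equal size. In the groups that hold the integrin genes, the median log2 ratio was between -0.14 and -0.08, and between 60.8% and 71.2% of the genes were lower. Relative to the median of its own group, a comparison added after seeing the data, each of the 9 was still lower, from -0.47 for ITGB5 to -0.05 for ITGA1, with a median of -0.21. For ITGA1, ITGA2 and ITGA3, the median of the length group lies inside the interval of the gene. The part of length in the integrin result was not tested beyond these values.

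**Figure D3:**
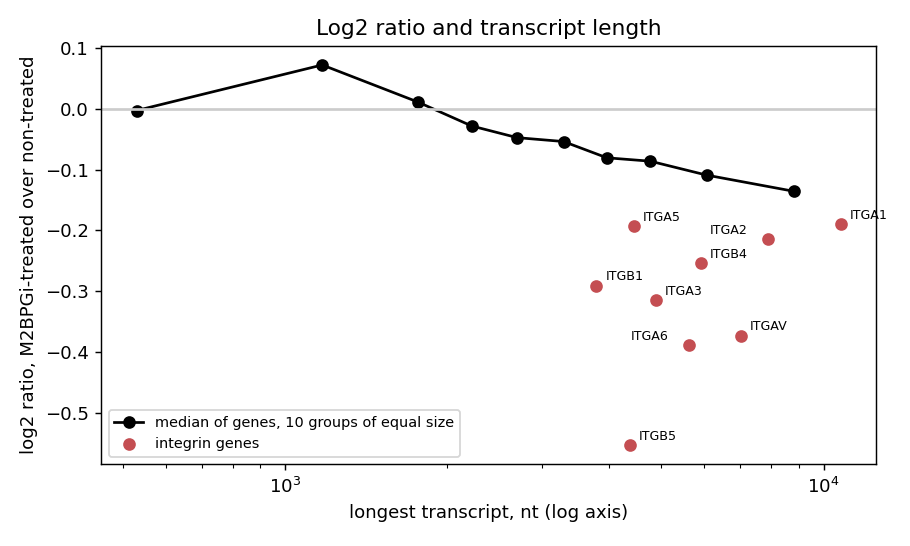
Log2 ratio against the length of the longest annotated transcript (log axis), with the median of each of the 10 length groups (line) and the 9 integrin genes (labelled points). The integrin genes lie at long lengths, where the medians fall to -0.14, and below the line.

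Of 16 other subunit genes, 7 were listed, and 4 of these (ITGA4, ITGA7, ITGAM and ITGB7) were at 0 in both libraries. ITGAE, the alpha subunit of a lymphocyte receptor for E-cadherin, was the most abundant of them, with 37.9 and 38.8 CPM (interval -0.10 to 0.17). Its interval spans 0. ITGA11 had 2.12 and 1.45 CPM, and ITGB6 had 0.12 and 0.32 CPM.

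Matrix ligands of these integrins were examined next. Of 6 laminin chain genes tested, 5 were called lower by the binomial test, against 28.4% of all genes. The other, LAMB3, had 47 and 48 tags (interval -0.63 to 0.59). The median of the 6 was -0.33, and -0.20 relative to genes of like length. LAMA3 had the lowest ratio, -0.67, with 11.7 and 6.96 CPM. The laminin chains LAMB1 and LAMB2, ligands of ITGA3 and ITGA6 receptors, had 209 and 162 CPM and 207 and 161 CPM. LAMC1 and LAMA5 had log2 ratios of -0.29 and -0.25. Of 4 collagen genes tested, 3 had a log2 ratio below 0, against 57.0% of all genes, and 1 was called lower, near the 28.4% of all genes. This was COL4A4, at 11.4 and 8.77 CPM, while COL5A2, at 25.8 and 22.9 CPM, was not called. Another 10 genes encode RGD ligands or, for CYR61 and CTGF, integrin ligands without an RGD motif. Of these 10, 9 had a log2 ratio below 0, against 57.0% of all genes, with a median of -0.29, and 6 were called lower, against 28.4%. FN1, which encodes fibronectin, the ligand of ITGA5, had 598 and 420 CPM (interval -0.55 to -0.47). FGA, a fibrinogen chain, had 1015 and 687 CPM, and SPP1, or osteopontin, the most abundant RGD ligand, had 1071 and 775 CPM. TGFB1 had a log2 ratio of -0.16, and CYR61 was the 1 higher of the 10, with 19.3 and 22.2 CPM. CTGF had 28.2 and 24.0 CPM and was called lower. Most of these ligand genes had a log2 ratio below 0, as the integrin genes did, but not all were called.

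Partners at the membrane came next. Of 12 lateral membrane partners, such as tetraspanins, 11 had a log2 ratio below 0, against 57.0% of all genes, and 7 were called lower, against 28.4%. Their median was -0.18. BSG, or basigin, had the lowest ratio, with 846 and 616 CPM, SDC4 had -0.26, and the most abundant, CD63, had 1340 and 1204 CPM. SDC1 had -0.05 and CAV1 was the 1 higher, at 0.11. Of 5 hemidesmosome genes tested, 4 were called lower, against 28.4% of all genes: LAMA3, DST at -0.38, PLEC at -0.27 and CD151, the tetraspanin partner of ITGA6, at 226 and 190 CPM. The other, LAMB3, had 47 and 48 tags and was not called. LAMA3 and LAMB3 were counted among the laminin chains too, and CD151 among the lateral partners. The median of the 5 was -0.27, and -0.24 relative to genes of like length. Of 7 genes of latent TGF-beta and its activation, not all tied to ITGAV integrins, 6 had a log2 ratio below 0, against 57.0% of all genes. Of the 7, 3 were called lower, against 28.4% of all genes. The 3 called were TGFB2 at -0.43 and LTBP1 and LTBP4, both at -0.29. TGFB1 was not called, and MMP14 had 0.01.

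Inside the cell, a list of regulators at integrin tails held 14 genes tested. Some of them, such as KANK1, KANK2 and RAP1A, do not bind the tails themselves. Of the 14, 9 had a log2 ratio below 0, against 57.0% of all genes, and 5 above, so their count was near that share. Their median was -0.06, and turned to 0.051 relative to genes of like length. Of these, 3 were called lower and 4 higher, against 28.4% and 20.8% of all genes. TLN1, which encodes talin, was the most abundant, with 172 and 158 CPM, and ITGB1BP1 had 126 and 121 CPM. KANK2 and KANK1 had the lowest ratios, at -0.37 and -0.35, while SHARPIN, an inhibitor of integrin activation, and RAP1A, an activator, had 0.40 and 0.29. Of 26 adaptors and kinases of adhesion complexes, 10 had a log2 ratio below 0, against 57.0% of all genes, and 16 above. Their median was 0.09, and 0.14 after rescaling and 0.16 relative to genes of like length. Of the 26, 10 were called higher and 5 lower, against 20.8% and 28.4% of all genes. LIMS1 and PARVA, which form a complex with integrin-linked kinase, had the highest ratios, at 0.47 and 0.45. PEAK1 and LPP had the lowest, at -0.61 and -0.31, and ACTN4 was the most abundant at 426 and 389 CPM.

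Of 14 genes of integrin endocytosis and recycling, 6 had a log2 ratio below 0, against 57.0% of all genes, and 8 above, with a median of 0.08, and 6 were called higher and 0 lower, against 20.8% and 28.4% of all genes. The median was 0.14 after rescaling, 0.13 at a mean of at least 10 CPM and 0.19 relative to genes of like length. SNX17, which binds beta subunit tails and returns integrins to the surface, had 158 and 211 CPM (interval 0.36 to 0.48). ARF6 had 127 and 160 CPM, and RAB11A, the most abundant, had 253 and 302 CPM. Among those with a mean of at least 10 CPM, GGA3 and PPFIA1 had the lowest ratios, at -0.10 and -0.08. The 4 proprotein convertases, some of which cleave alpha subunits, were 2 higher and 2 lower, against 57.0% of all genes below 0. Of the 4, 1 was called lower, near the 28.4% of all genes. This was FURIN, with 7.36 and 5.35 CPM (interval -0.80 to -0.13). PCSK6 at -0.08 and PCSK7 at 0.06 had intervals that span 0.

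**Figure D4:**
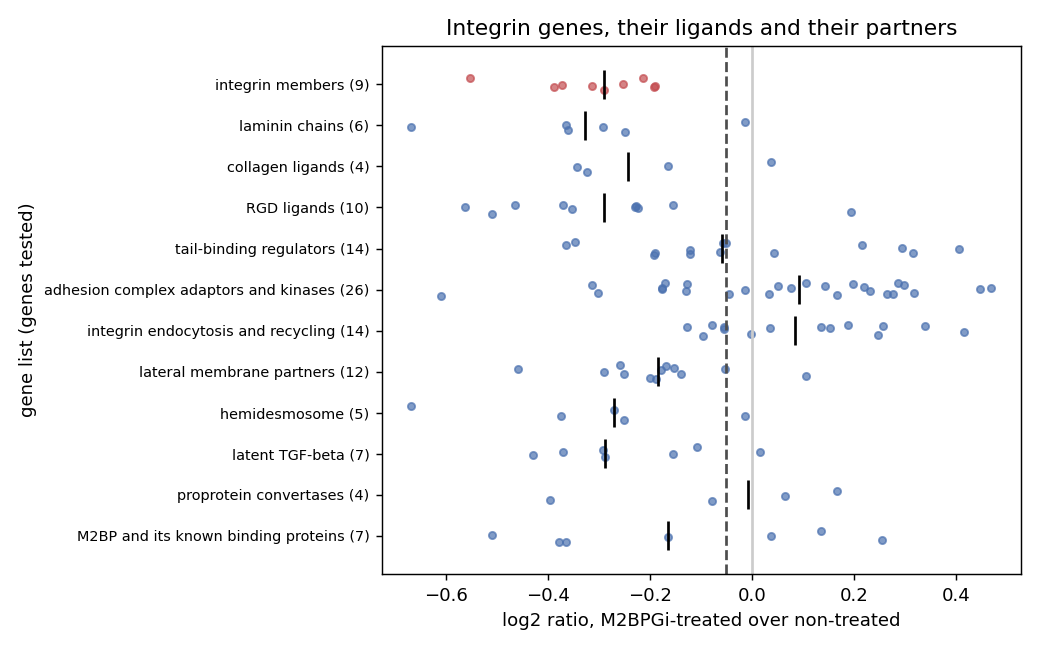
Log2 ratio (M2BPGi-treated over non-treated) for the genes tested of each list (points), with the median of the list (bars) and of all genes (dashed line). The other integrin subunits and the cell type markers are not shown. The 9 integrin genes all lie below 0, while the medians of the adaptors and of the recycling genes are 0.09 and 0.08.

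Of 7 genes of M2BP and its known binding proteins, 4 had a log2 ratio below 0 and 3 above, near the 57.0% of all genes below 0, with a median of -0.17. This median was -0.26 at a mean of at least 10 CPM, -0.026 with no filter and -0.029 relative to genes of like length, so it is not stable. LGALS3BP, which encodes M2BP itself, had 277 CPM without and 213 CPM with M2BPGi. LGALS3, which encodes galectin-3, had 136 and 150 CPM, and LGALS1 had 92.0 and 110 CPM. Of the 7, 2 were called higher and 3 lower by the binomial test, against 20.8% and 28.4% of all genes. The 2 called higher were these galectin genes, with log2 ratios of 0.14 for LGALS3 and 0.25 for LGALS1. Relative to genes of like length, the ratios of LGALS3 and LGALS1 were 0.063 and 0.26.

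The labelled cell type was compared with its markers. All 9 hepatocyte or hepatoma markers were listed, with sums of 3546 and 3502 CPM, and the sums without KRT18 were 2296 and 1910 CPM. Most of the sums came from KRT18, KRT8 (835 and 811 CPM), AFP (695 and 566 CPM) and SERPINA1 (671 and 455 CPM). Low levels were found for ALB (8.82 and 7.04 CPM), APOA1 (4.37 and 4.63 CPM) and TTR (3.62 and 2.49 CPM). Of the 9, 7 had a log2 ratio below 0, against 57.0% of all genes, and 5 were called lower, against 28.4%. Their median was -0.29, the same as that of the integrin genes to 2 decimals. KRT18 was the most abundant and was higher, with 1250 and 1592 CPM. KRT8 had a log2 ratio of -0.04, while SERPINA1 and APOB had -0.56 and -0.46. Of 5 bile duct markers, 4 were listed, with sums of 196 and 181 CPM, KRT19 the most abundant at 164 and 156 CPM and CFTR at 19.7 and 13.3 CPM. Of 7 stellate cell or fibroblast markers, COL3A1 and COL1A1 were listed, at sums of 5.20 and 4.18 CPM. PTPRC and CSF1R, leukocyte markers, were at 0 in both libraries. Endothelial and platelet markers were not analysed here. The part of these markers in the integrin differences was not tested.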

How the data were processed

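CAGE tags were measured in 1 library of non-treated and 1 library of M2BPGi-treated PLC/PRF/5 cells. The authors deposited CPM per gene with 2 decimals. The submitters' processing notes name BWA, HISAT2 and the human build hg19, and the gene identifiers are human, although a mouse genome is named in the methods. The rule for tags of genes that overlap or have copies is not given in the sources used here.

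Whole tags were recovered from the CPM steps, since 100% of values above 0 were multiples of 1 tag within a rounding of 0.005 CPM. Log2 ratios used a pseudocount of 1 CPM and a mean of at least 1 CPM. The binomial p doubled the smaller tail, with a threshold of 0.05. Its other two-sided definition, which sums all outcomes no more likely, was an alternative, as were other pseudocounts, filters, folds and scalings.

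Integrin genes and gene lists were written by hand, with earlier results of these data known. Genes were matched by symbol or, failing that, by identifier, unless the symbol belongs to another gene. The row with the identifier of VTN and the symbol SEBOX was so left out. This rule and the doubled tail were settled after the values of both versions had been seen. The genes named are the integrin genes, other listed subunits, genes that overlap them or carry their symbol, and, of each list, the 2 highest, the 2 lowest and the most abundant with a mean of at least 10 CPM. Lists overlap. COL1A1, COL3A1, PTPRC and CSF1R were also named as markers, and AFP, ALB, APOA1, CTGF, FURIN, LAMA3, LAMB3, TGFB2 and TTR after their values were seen. Transcript length is that of the longest basic transcript in GENCODE v29 (GRCh38), matched by identifier for 13271 of the 13724 genes. Copies were searched with the first 500 nt of each integrin transcript (at least 100 nt, 95% identity). Only the recovery of whole tags and the binomial test were tested on simulated data, which held counting error and no variation between cultures. Python 3.11.15 with scipy 1.17.1 was used.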

Additional observations from a re-analysis of the deposited data

How the results depend on the processing

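No paired analysis was possible because there is only 1 library of each kind, so none can be left out either. All 9 integrin genes had a log2 ratio below 0 with pseudocounts of 0.1 and 5 CPM, after rescaling to a median log2 ratio of 0, and relative to genes of like transcript length. Their median was between -0.30 and -0.21 over all settings. It is called unmoved where it shifts by less than 0.11, the median half-width of the integrin intervals, so a shift from -0.29 to -0.21 counts as unmoved. The values of ITGB1 and ITGB5 lay outside their intervals after rescaling, and those of ITGB1, ITGB4, ITGB5, ITGA5 and ITGA6 relative to genes of like length. The number of integrin genes at least 1.5-fold lower was 0 in each setting except at the lowest fold tried (log2 ratio of -0.32), where it was 3. The binomial test called 6754 genes, or 6811 with the other two-sided definition, and 8 integrin genes, or 6 after rescaling.

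The median of the other integrin subunits turned to 0.034 at a mean of at least 10 CPM, where 1 gene is left. That of the regulators at integrin tails turned to 0.051 relative to genes of like length. That of the convertases turned to 0.044 after rescaling and 0.079 relative to genes of like length. The medians of the laminin chains, the recycling genes and the M2BP list moved relative to genes of like length, to -0.20, 0.19 and -0.029. The cause was not tested. With the row that has the identifier of VTN, the median of the list of RGD ligands, CYR61 and CTGF was -0.23. The settings by length, without ITGA1, with VTN, with the other p and the rescaled binomial test were chosen after seeing the data. TMM scaling, and a count test with an assumed biological variation, were planned and not run. CPM rounding amounts to 0.12 of a tag, and 83.2% (non-treated) and 80.4% (M2BPGi-treated) of the values above 0 lay within 0.1 of a tag of a whole number, the tolerance set for using count models on recovered tags. The binomial test and the intervals rest on the same recovered tags. Counting error is the only error these libraries give, and variation between cultures is not measured.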
